A study of Mus musculus with 12 samples.

Results

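Egfr, the receptors Fgfr1, Fgfr2 and Fgfr3, and 6 genes that ERK signalling is known to induce (Spry1, Spry2, Spry4, Dusp6, Etv4 and Etv5) were followed in hippocampal neural progenitor cells (mNPCs) from newborn mice. The 10 genes were chosen by symbol, all 10 were found among the 18911 genes of the count table, and all 10 passed the filter on low counts. RNA-Seq had been performed on 12 libraries, 3 for each of 4 genotypes on a C57BL/6J background. These were Kmt2a+/+ and Kmt2a+/LSL, and the same 2 with a nestin-Cre transgene, written Nes-Cre+/- Kmt2a+/+ for the first and Nes-Cre+/- Kmt2a+/LSL for the second. The LSL allele carries a lox-STOP-lox cassette in the first intron of Kmt2a, a gene for a histone methyltransferase, and ends transcription early. The nestin-Cre transgene removes the cassette in cells of the neural lineage, so Kmt2a+/LSL models the loss of 1 working allele and Nes-Cre+/- Kmt2a+/LSL its return before birth. The Cre acts in nestin-expressing cells and their progeny only, and Nes-Cre+/- Kmt2a+/+ is the control for the transgene itself. The labels do not say whether the 3 libraries of a genotype came from separate pups, so p-values measure the spread between these libraries, part of which may be technical.

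EGF and FGF ligands bind receptor tyrosine kinases, which start a RAS, RAF, MEK and ERK relay that keeps neural progenitors dividing. ERK in turn induces its own brakes: Sprouty proteins act on the relay upstream of ERK, and DUSP6 removes phosphate from ERK itself. ETV4 and ETV5 are ETS transcription factors that ERK signalling switches on, and in neural and other tissues they serve as a readout of FGF receptor activity. All of these cultures were grown with both FGF-2 and EGF in the medium. The libraries therefore show how these genes were transcribed under steady ligand supply, and RNA levels do not measure receptor or ERK phosphorylation. In bulk libraries, fewer cells of a type and less RNA per cell cannot be told apart.

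The library totals ran from 18280008 to 28596919 estimated reads, and the lowest raw count of any of the 10 genes in any library was 283 (Fgfr3). Kmt2a itself followed the labels, with 3972, 3979 and 3991 normalized reads in Kmt2a+/LSL against 6720 to 7194 in Kmt2a+/+. The Nes-Cre+/- Kmt2a+/+ libraries held 6777 to 7427, those of Nes-Cre+/- Kmt2a+/LSL 6205 to 6814. Relative to Kmt2a+/+, the log2 value of Kmt2a in Kmt2a+/LSL was -0.80 (SE 0.13, adjusted p = 0.281 by edgeR's quasi-likelihood test with all 12 libraries, 0.0437 without Kmt2a+/+ replicate 1). DESeq2's Wald test of all 12 gave -0.84 (SE 0.09, adjusted p = 6.09e-18). All 7 neural progenitor markers were detected in every library, Nes between 7578 and 18156 and Sox2 between 5408 and 9281. The 4 microglial markers tested summed to at most 49.9 in any library, with Aif1 at 10 counts or fewer in all, and 4 vascular and mesenchymal markers summed to 32.9 to 95. The 5 neuronal markers summed to 742 to 1156, while the 5 astrocyte markers summed to 12916 to 44273. The 7 oligodendrocyte lineage markers summed to 28734 to 133191, most of it from Olig1 (16889 to 99275) and Olig2 (9463 to 26746), with Sox10 at 4.28 to 250 and Mbp at 25.7 to 57.8. Kmt2a+/+ replicate 1 stood apart from the other 11 libraries. It had the lowest total, a limma-voom quality weight of 0.0537 against 0.479 to 3.57 elsewhere, and an excess of transcripts poor in G and C. The fifth of genes lowest in GC content (at most 43.7%) were higher there by a median of 0.763 on the log2 scale than in the average library, and the fifth highest in GC content (at least 55.4%) were lower by a median of 1.52 (-1.52). Its part in each difference that involves Kmt2a+/+ was not tested beyond the values given with and without it.

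All 10 genes were transcribed in every library, and the median per-length level of 8 of them was above that of at least 89.8% of the genes tested. Levels are compared between genes per length, as reads per base of the longest annotated transcript scaled to the same sum in each library. The median level over the 12 libraries was 281 for Etv5 and 281 for Egfr, each above 97.3% of the genes tested. Spry2 (201), Etv4 (185), Fgfr1 (182), Fgfr3 (164), Dusp6 (124) and Spry1 (96.4) followed. Fgfr2 (27.9) and Spry4 (25.2) were the lowest, above 66.8% and 64.5% of genes. Among neighbours in this order, the ranges over the 12 libraries were separate for Spry1 and Fgfr2 alone, although Egfr exceeded Spry2 and Dusp6 exceeded Spry1 in each of the 12 libraries. Etv5 exceeded Egfr in 6 of 12 libraries and Fgfr2 exceeded Spry4 in 6 of 12, so neither pair has a stable order here. Fgfr2 ranged from 25.4 to 37.8 per length, and Fgfr3 from 98.3 to 321 in 11 libraries with 8.94 in Kmt2a+/+ replicate 1.

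**Figure D1:**
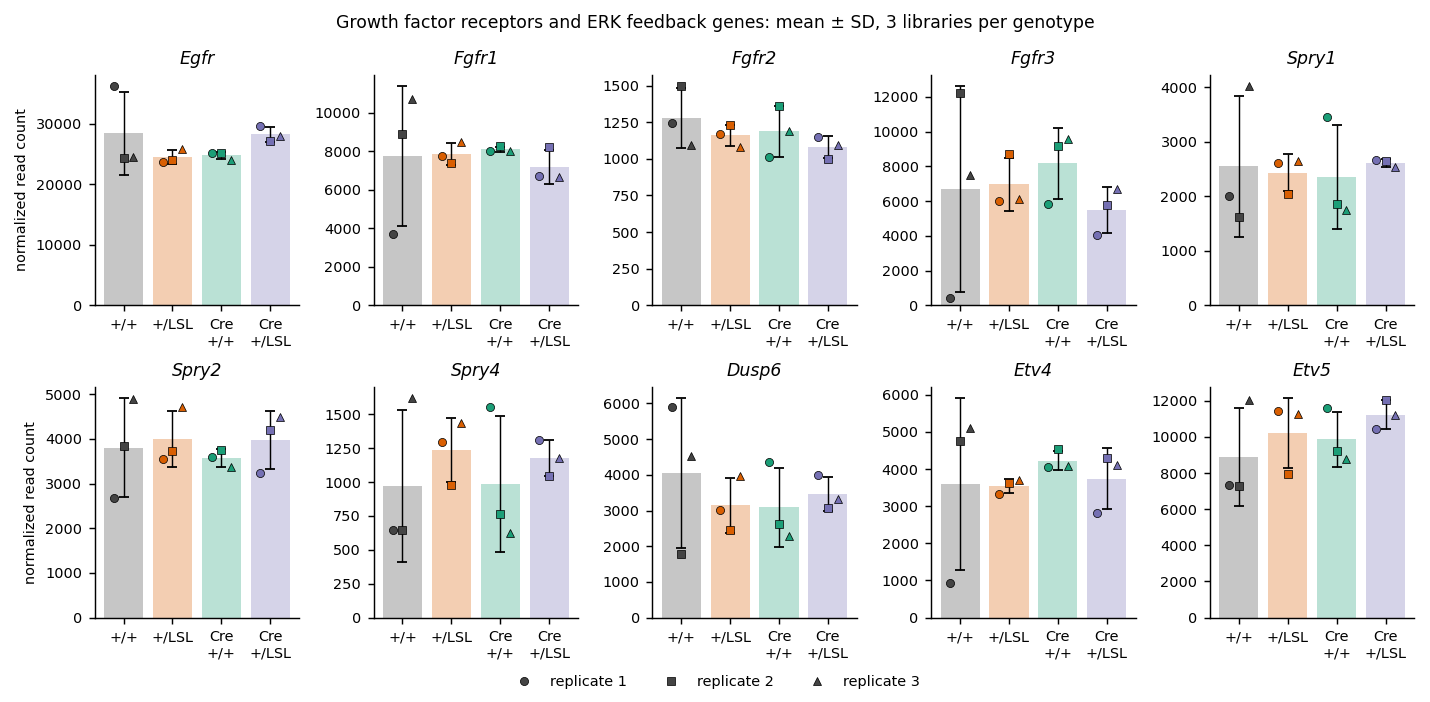
Normalized read counts of the 10 genes (vertical axes, linear and starting at 0) in the 4 genotypes (horizontal axes; Cre marks the nestin-Cre transgene), with bars for means, error bars for SD (n = 3) and 1 symbol per replicate. Egfr in Nes-Cre+/- Kmt2a+/LSL (27182 to 29658) lies above Kmt2a+/LSL and Nes-Cre+/- Kmt2a+/+, and Kmt2a+/+ replicate 1 holds the highest Egfr and Dusp6 and the lowest Fgfr1, Fgfr3 and Etv4.

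No difference between genotypes passed the test for any of the 10 genes. In edgeR's quasi-likelihood test over all 12 libraries, 0 of 10 had an adjusted p under 0.05 in any comparison, and 0% of the 17076 genes tested did so either. An unadjusted p under 0.05 was likewise seen for 0 of the 10 in each. Over all genes that share was 1.79% (306 genes) for Kmt2a+/LSL against Kmt2a+/+, 1.61% (275) for Nes-Cre+/- Kmt2a+/LSL against Kmt2a+/LSL, 1.4% (239) for Nes-Cre+/- Kmt2a+/+ against Kmt2a+/+, and 1.11% (190) for Nes-Cre+/- Kmt2a+/LSL against Nes-Cre+/- Kmt2a+/+. It was 1.73% (295) for the interaction of the LSL allele with nestin-Cre, 1.15% (197) for any difference among the 4 genotypes, and 1.66% (283) for the libraries with nestin-Cre against those without. DESeq2's Wald test called 3 to 10 genes per comparison and limma-voom up to 2, none of them among the 10. The 4 comparisons share libraries, so their values are given side by side and not as independent evidence. The intervals show what the design could see: at 95%, the log2 difference between Kmt2a+/LSL and Kmt2a+/+ spanned -0.59 to 0.17 for Egfr, -0.64 to 0.67 for Fgfr1 and -1.60 to 1.71 for Fgfr3. With 3 libraries against 3, a two-sided exact permutation test of a single gene cannot give a p below 0.1.

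**Figure D2:**
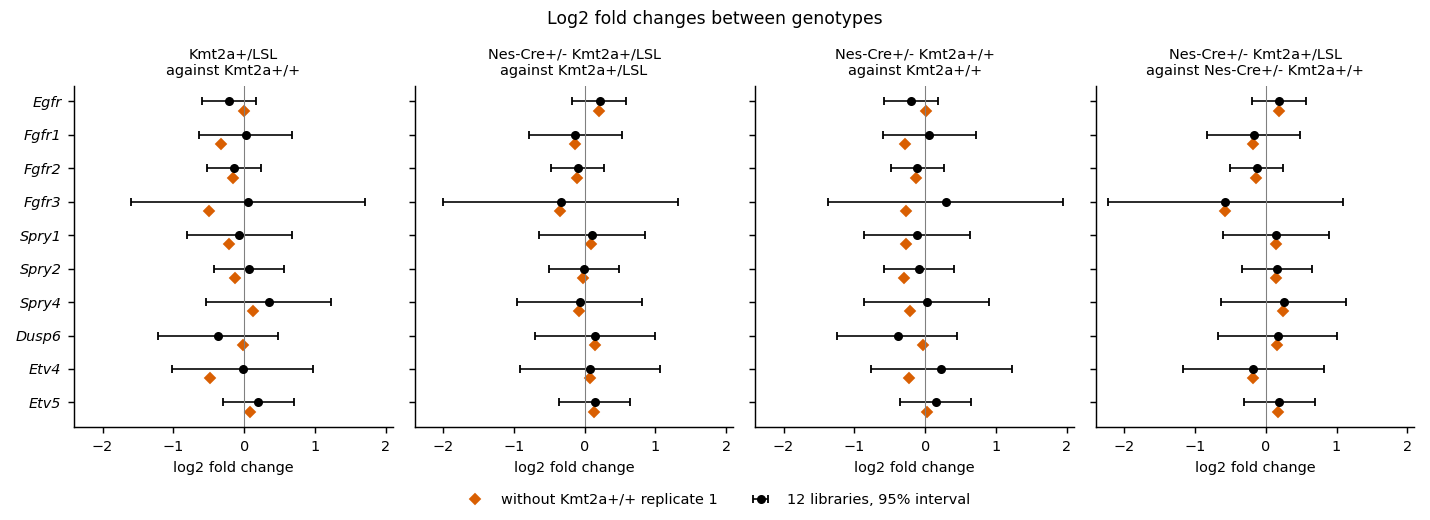
Log2 fold changes of the 10 genes (horizontal axes) in the 4 comparisons between genotypes, with 95% intervals from edgeR (black, 12 libraries) and the values without Kmt2a+/+ replicate 1 (orange). All 40 intervals include 0, and Fgfr3 has the widest.

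Egfr, the receptor for EGF, lies on chromosome 11 (GRCm38 16752203 to 16918158, plus strand). Its normalized counts were 36291, 24396 and 24464 in Kmt2a+/+, then 23660, 24066 and 25768 in Kmt2a+/LSL, then 25073, 25160 and 24004 for the Nes-Cre+/- Kmt2a+/+ libraries, with 29658, 27182 and 27919 for those of Nes-Cre+/- Kmt2a+/LSL. The 3 Nes-Cre+/- Kmt2a+/LSL libraries were thus above all libraries other than Kmt2a+/+ replicate 1. Against Kmt2a+/LSL, Egfr was higher by a log2 value of 0.21 (SE 0.17, edgeR adjusted p = 1; two-sided exact permutation p = 0.1), and 7.1% of all genes had libraries that did not overlap in that comparison. Against Nes-Cre+/- Kmt2a+/+ it was higher by 0.19 (SE 0.17, edgeR adjusted p = 1; two-sided exact permutation p = 0.1), where 6.68% of all genes did not overlap. It was the single member of the 10 that did not overlap in these 2 comparisons. In the other 2 comparisons none of the 10 was separate, against 4.05% of genes for Kmt2a+/LSL against Kmt2a+/+ and 4.35% for Nes-Cre+/- Kmt2a+/+ against Kmt2a+/+.

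Kmt2a+/+ replicate 1 belongs to neither of these 2 comparisons and entered them through the scaling and the shared estimate of spread. Without that library the values of Egfr were 0.20 (SE 0.10, edgeR unadjusted p = 0.0726, adjusted p = 1) against Kmt2a+/LSL and 0.19 (SE 0.10, edgeR unadjusted p = 0.086, adjusted p = 1) against Nes-Cre+/- Kmt2a+/+. DESeq2 on the same 11 libraries gave 0.22 (SE 0.08) and 0.21 (SE 0.08), with adjusted p = 0.657 and 1. With an offset for GC content added to the edgeR test of all 12 libraries they were 0.20 and 0.17 (SE 0.10 each). On that adjusted scale the Nes-Cre+/- Kmt2a+/LSL libraries (10.14, 10.21 and 10.25 log2 CPM) reached down to Kmt2a+/LSL replicate 3 (10.15) and lay level with Kmt2a+/+ (10.12 to 10.25). Within genotypes Egfr was among the steadiest of genes once Kmt2a+/+ replicate 1 was set aside: its pooled SD was 0.05 on the log2 scale, smaller than for all but 0.488% of the 11670 genes with a mean normalized count of at least 50. With all 12 libraries 12.7% of such genes had a smaller SD than Egfr, and with the GC offset 3.11%. Most of these genes have lower counts than Egfr, and ranks among genes of like level were not taken.

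Fgfr1, a receptor for FGF-2, lies on chromosome 8 (25513654 to 25575718, plus strand). Its counts were 3698, 8896 and 10733 in Kmt2a+/+, then 7756, 7390 and 8485 in Kmt2a+/LSL, then 8029, 8271 and 8030 for the Nes-Cre+/- Kmt2a+/+ libraries, with 6713, 8223 and 6652 for those of Nes-Cre+/- Kmt2a+/LSL. Apart from Kmt2a+/+ the genotypes were close, and the low value in Kmt2a+/+ belongs to replicate 1. With all libraries the log2 difference between Kmt2a+/LSL and Kmt2a+/+ was 0.02 (SE 0.30, edgeR adjusted p = 1). Without replicate 1 it was -0.32 (SE 0.13, edgeR unadjusted p = 0.0352, adjusted p = 0.551), and with the GC offset and all 12 libraries -0.13 (SE 0.10, edgeR adjusted p = 0.978). The sign differed between these settings.

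Fgfr3, an FGF receptor that marks astrocytes and their progenitors, lies on chromosome 5 (33721674 to 33737068, plus strand) and showed the widest spread of the 10. Its counts were 403, 12216 and 7520 in Kmt2a+/+, then 6027, 8715 and 6151 in Kmt2a+/LSL, then 5845, 9151 and 9570 for the Nes-Cre+/- Kmt2a+/+ libraries, with 4054, 5757 and 6697 for those of Nes-Cre+/- Kmt2a+/LSL. Within Kmt2a+/+ the highest count was 30.3 times the lowest. The pooled SD within genotypes was 1.36 on the log2 scale, larger than for 97.5% of genes, and 0.38 without Kmt2a+/+ replicate 1. With nestin-Cre the mean was 5502 ± 1340 for Kmt2a+/LSL and 8189 ± 2041 for Kmt2a+/+, and without it 6964 ± 1517 and 6713 ± 5947 (SD, n = 3 for each of the 4). The place of Kmt2a+/+ in this order depended on its replicate 1, since the log2 difference of Nes-Cre+/- Kmt2a+/+ relative to Kmt2a+/+ was 0.29 (SE 0.75) with it and -0.27 (SE 0.28) without it. Between the 2 genotypes with nestin-Cre the log2 difference was -0.57 (SE 0.76, edgeR adjusted p = 1). Without Kmt2a+/+ replicate 1 this was -0.58 (SE 0.25, edgeR unadjusted p = 0.0399, adjusted p = 1), and the 2 groups overlapped. An antisense gene overlaps 998 bases of its exons and has no row of its own here, so reads of the 2 may be mixed where strand was not used.

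Fgfr2, on chromosome 7, was the lowest and one of the steadiest of the receptors, between 1001 (Nes-Cre+/- Kmt2a+/LSL) and 1500 (Kmt2a+/+). Its 4 genotype means were 1279, 1159, 1188 and 1082 in the order of the groups above, and its largest difference of genotype means (0.23 on the log2 scale) was near its pooled SD within genotypes (0.17). It shares 314 exonic bases with Ctbp2 on the same strand.

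The Sprouty genes Spry1 and Spry4, inhibitors of receptor signalling, varied more within genotypes than between them. Spry1 counts were 1999, 1612 and 4031 in Kmt2a+/+, then 2606, 2036 and 2655 in Kmt2a+/LSL, then 3449, 1862 and 1747 for the Nes-Cre+/- Kmt2a+/+ libraries, with 2658, 2638 and 2532 for those of Nes-Cre+/- Kmt2a+/LSL. Spry4 counts were 647, 643 and 1622 in Kmt2a+/+, then 1297, 978 and 1439 in Kmt2a+/LSL, then 1557, 765 and 626 for the Nes-Cre+/- Kmt2a+/+ libraries, with 1307, 1046 and 1175 for those of Nes-Cre+/- Kmt2a+/LSL. The pooled SD within genotypes was 0.45 for Spry1 and 0.54 for Spry4 on the log2 scale, against largest differences of genotype means of 0.22 and 0.48. Over the 11670 genes with a mean normalized count of at least 50, the median SD (0.37) also exceeded the median largest difference (0.27). All 4 groups overlapped for both genes. Spry2, the most abundant Sprouty gene per length, was steadier, with counts of 2672 to 4901 over all libraries and a pooled SD of 0.28. Spry4 had the largest positive difference of the 10 between Kmt2a+/LSL and Kmt2a+/+, a log2 value of 0.35 (SE 0.40, edgeR adjusted p = 1). That value depended on single libraries, at 0.12 without Kmt2a+/+ replicate 1 or replicate 2 and at 0.94 (SE 0.35, edgeR unadjusted p = 0.0236, adjusted p = 0.683) without replicate 3, and at 0.23 without Kmt2a+/LSL replicate 3. Of the 31-base words of Spry1, 23.1% also occur in the antisense gene Gm42922, so reads of the 2 may be mixed.

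Dusp6, the ERK phosphatase, behaved much as Spry1 and Spry4 did outside Kmt2a+/+ replicate 1. Its counts were 5894, 1769 and 4518 in Kmt2a+/+, then 3013, 2443 and 3970 in Kmt2a+/LSL, then 4361, 2618 and 2299 for the Nes-Cre+/- Kmt2a+/+ libraries, with 3998, 3082 and 3335 for those of Nes-Cre+/- Kmt2a+/LSL. The Kmt2a+/+ libraries bracketed every other library, with both the lowest and the highest of the 12. The log2 difference between Kmt2a+/LSL and Kmt2a+/+ was -0.37 (SE 0.39, edgeR adjusted p = 1). It was -0.01 without Kmt2a+/+ replicate 1, -0.73 (SE 0.30, edgeR unadjusted p = 0.0337, adjusted p = 0.904) without replicate 2, and -0.24 and -0.57 without replicates 2 and 3 of Kmt2a+/LSL. Its sign turned with limma-voom, at 0.31 (SE 0.35, adjusted p = 0.813).

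Of the ETS factors, Etv5 was higher per length than Etv4 at the median. Etv5 counts were 7354, 7309 and 12024 in Kmt2a+/+, then 11438, 7972 and 11250 in Kmt2a+/LSL, then 11584, 9245 and 8754 for the Nes-Cre+/- Kmt2a+/+ libraries, with 10427, 12040 and 11240 for those of Nes-Cre+/- Kmt2a+/LSL. Of its 31-base words, 30.3% also occur in the Gm4798 locus, so part of its count is uncertain. Etv4 counts were 936, 4756 and 5118 in Kmt2a+/+, then 3325, 3615 and 3698 in Kmt2a+/LSL, then 4059, 4529 and 4093 for the Nes-Cre+/- Kmt2a+/+ libraries, with 2806, 4303 and 4118 for those of Nes-Cre+/- Kmt2a+/LSL. Replicates 2 and 3 of Kmt2a+/+ lay above all 3 Kmt2a+/LSL libraries, and with replicate 1 set aside 28.8% of all genes did not overlap in that comparison. With all 12 libraries the log2 difference of Etv4 between Kmt2a+/LSL and Kmt2a+/+ was -0.02 (SE 0.45, edgeR adjusted p = 1), and it was 0.23 and 0.32 without replicate 2 or replicate 3 of Kmt2a+/+. Without replicate 1 it was -0.48 (SE 0.16, edgeR unadjusted p = 0.0112, adjusted p = 0.551), and DESeq2 on those 11 libraries gave -0.48 (SE 0.18, adjusted p = 0.247). With the GC offset and all 12 libraries it was -0.13 (SE 0.11, edgeR adjusted p = 0.978). Etv4 has the highest GC content of the 10 (58.7% of its longest transcript).

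The weight of Kmt2a+/+ replicate 1 can be read from these counts. Without it, the share of all genes with an unadjusted p under 0.05 by edgeR's test was 8.95% for Kmt2a+/LSL against Kmt2a+/+, 3.89% for Nes-Cre+/- Kmt2a+/LSL against Kmt2a+/LSL, 6.09% for Nes-Cre+/- Kmt2a+/+ against Kmt2a+/+, and 3.23% for Nes-Cre+/- Kmt2a+/LSL against Nes-Cre+/- Kmt2a+/+. Among the 10 genes the counts by the same test were 2 (Fgfr1 and Etv4), 0, 0 and 1 (Fgfr3). Fgfr1 and Etv4 were then also lower in all 3 Kmt2a+/LSL libraries than in both remaining Kmt2a+/+ libraries, as 28.8% of all genes were in one direction or the other. Fgfr1, Spry2 and Etv4 were lower in Nes-Cre+/- Kmt2a+/+ than in those 2 libraries, where the share of all genes was 29.3%. Egfr was level between Kmt2a+/LSL and Kmt2a+/+ in that setting, at 0.00 (SE 0.11). No adjusted p of the 10 genes was under 0.05 in any setting, the lowest being 0.247.

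The deviations of the 10 genes in Kmt2a+/+ replicate 1 followed GC content for some of them and not for others. Egfr (44.4% GC) was higher there by 0.53 on the log2 scale than the median of the other 11 libraries, while Fgfr1 (55.4%) was at -1.12, Fgfr3 (56.4%) at -4.05 and Etv4 (58.7%) at -2.13. With the GC offset the deviations were 0.02 for Egfr, 0.13 for Fgfr1 and -0.23 for Etv4, so that Egfr and Fgfr1 lay inside the range of the other 11 libraries and Etv4 (7.01 log2 CPM) just under it (7.02 to 7.39). Spry2 (46.2%) did not follow, at -0.49 before and -0.74 after, and Fgfr2 went from 0.11 to 0.38. Fgfr3 stayed low at -2.52, Dusp6 (49%) stayed high at 1.04 from 0.94, and Spry1 (56.7%) went from -0.38 to 1.16, the highest of the 12. Other transcripts low in the same library before adjustment include Hes5, a Notch target (51.3 there, 1097 to 3822 in the other 11), and the astrocyte markers Aqp4 (171 there, 335 to 2534 in the other 11) and Aldh1l1 (5439 there, 10285 to 24331 in the other 11). The astrocyte markers Gfap (1623), S100b (687) and Gja1 (4996) lay inside the range of the other libraries. Among the oligodendrocyte lineage markers, Olig1 (16889 there, 61449 to 99275 in the other 11) and Olig2 (9463 against 16594 to 26746) were also low. So were Cspg4 (566 against 2652 to 5410) and Sox10 (4.28 against 42.9 to 250). The neuronal markers went both ways. Tubb3 (72.7 against 276 to 675) and Rbfox3 (11.4 against 18 to 60) were low. By contrast Dcx (473 against 150 to 420) and Snap25 (388 against 91.5 to 190) were the highest of the 12. The progenitor markers Fabp7 (214648), Vim (68607) and Pax6 (1260) were also highest there, while Sox2 (5408) was lowest. What set Fgfr3, Dusp6 and Spry1 apart in this library was not tested.

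**Figure D3:**
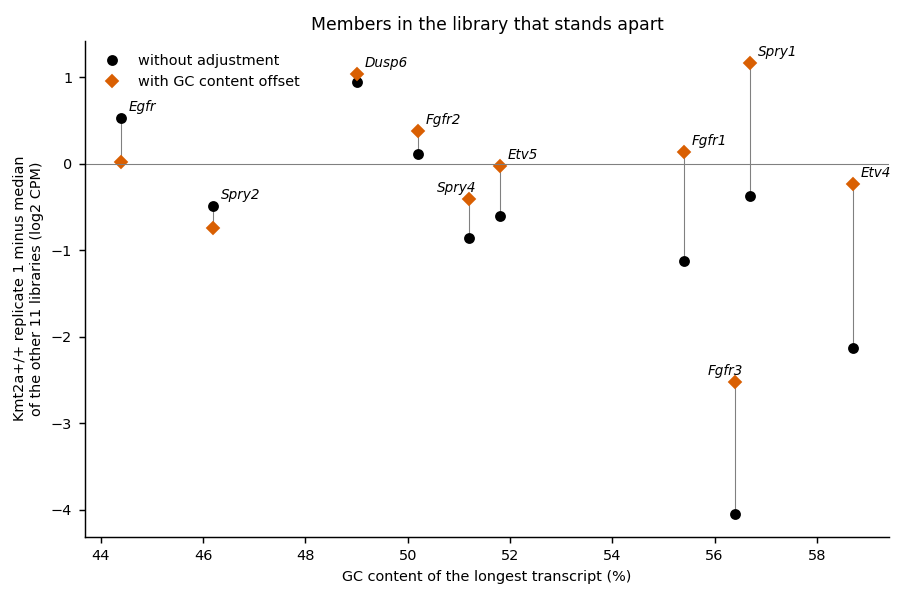
Deviation of the 10 genes in Kmt2a+/+ replicate 1 from the median of the other 11 libraries (vertical axis, log2 CPM) against the GC content of their longest transcript (horizontal axis, percent), before (black circles) and after (orange diamonds) a GC content offset. After the offset Egfr, Fgfr1, Etv4 and Etv5 lie within 0.23 of 0, whereas Fgfr3 stays at -2.52.

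Several feedback genes varied together inside genotypes, and for Spry1, Spry4 and Dusp6 the pooled SD within genotypes (0.45, 0.54 and 0.55 on the log2 scale) exceeded the largest difference of genotype means (0.22, 0.48 and 0.28). This was not particular to them, as the medians over 11670 genes were 0.37 and 0.27. It also held for Fgfr1 (0.42 against 0.20), Fgfr3 (1.36 against 1.26), Spry2 (0.28 against 0.15) and Etv4 (0.71 against 0.57). It did not hold for Egfr, Fgfr2 and Etv5. Among the Nes-Cre+/- Kmt2a+/+ libraries, replicate 1 held the highest Spry1, Spry4, Dusp6 and Etv5 and replicate 3 the lowest of each, with Spry4 at 2.49 times and Dusp6 at 1.9 times the lowest value. In Kmt2a+/LSL, replicate 2 held the lowest of the same 4 genes. In Kmt2a+/+, replicate 2 held the lowest of the 4, and replicate 3 was at 2.5 times its level for Spry1 and 2.52 times for Spry4. Replicate 1 of Kmt2a+/+ was nearly level with replicate 2 for Spry4 (647 against 643) and Etv5 (7354 against 7309). The 3 Nes-Cre+/- Kmt2a+/LSL libraries were close, with the highest Spry1 at 1.05 times the lowest. Etv4 and Spry2 did not take part in the Nes-Cre+/- Kmt2a+/+ difference, where their highest values were 1.12 and 1.11 times the lowest. The mean centred log2 level of all 6 feedback genes was lowest in Kmt2a+/+ replicate 1 (-0.49), and was -0.35 in Kmt2a+/+ replicate 2, -0.30 in Nes-Cre+/- Kmt2a+/+ replicate 3, 0.31 in its replicate 1 and 0.51 in Kmt2a+/+ replicate 3. In Kmt2a+/+ replicate 1 the 6 genes did not move together, with Etv4 at -1.91 and Dusp6 at 0.85. In 2 settings chosen after seeing the data Kmt2a+/+ replicate 2 was the lowest library instead, at -0.51 without Etv4 and -0.44 with the GC offset, and Kmt2a+/+ replicate 1 was at -0.20 and 0.16.

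**Figure D4:**
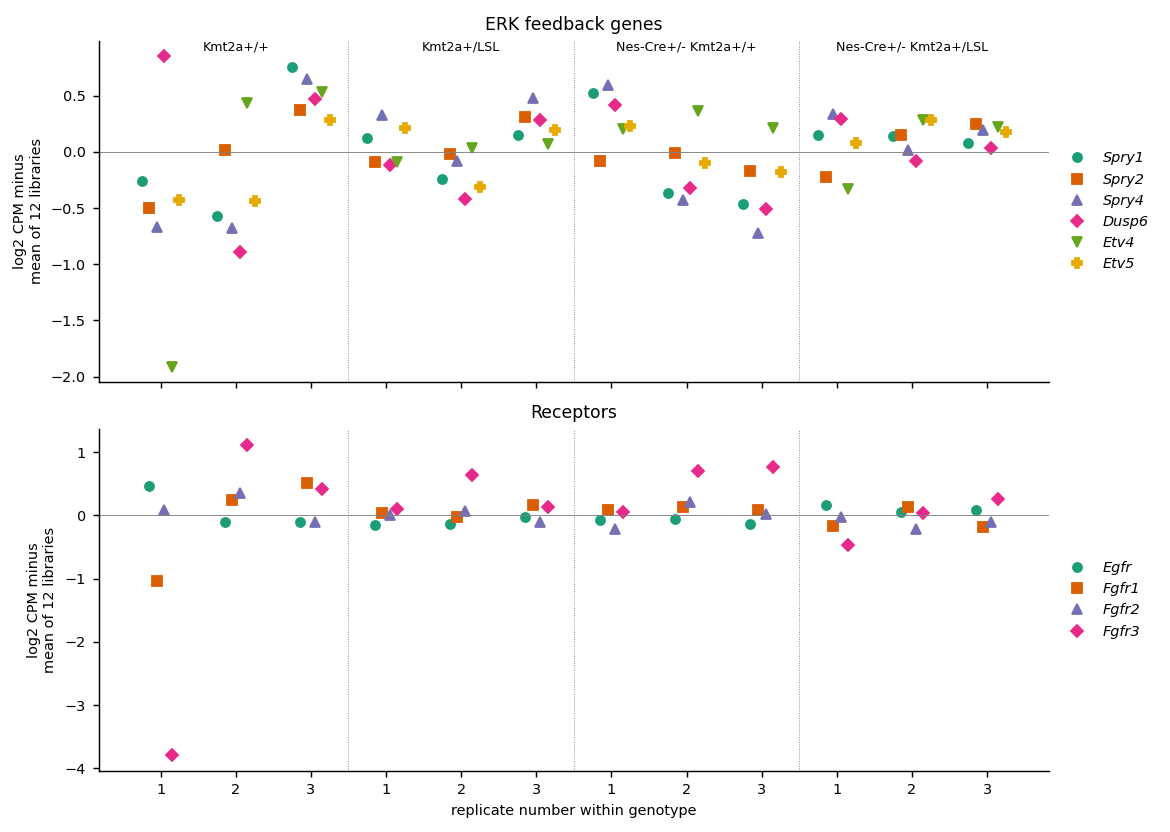
Log2 CPM of each gene minus its mean over the 12 libraries (vertical axes) for the 6 feedback genes (upper panel) and the 4 receptors (lower panel), by library (horizontal axis, replicate numbers within each of the 4 genotypes). Within Nes-Cre+/- Kmt2a+/+, replicate 1 is the highest in Spry1, Spry4, Dusp6 and Etv5 and the lowest in Fgfr3.

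Other values moved with this pattern inside the genotypes, and the genes for them were named after their values were seen. Ccnd1, a cyclin of the first gap phase that growth factors induce, had 13164, 6276 and 5531 reads in replicates 1 to 3 of Nes-Cre+/- Kmt2a+/+, in the same order as Dusp6 (4361, 2618 and 2299). It had 16105, 6720 and 8972 reads in Kmt2a+/LSL and 16664, 3466 and 12917 in Kmt2a+/+, again lowest in replicate 2 of each. With 12199, 7697 and 9267 reads in Nes-Cre+/- Kmt2a+/LSL, it was highest in replicate 1 of all 4 genotypes. Myc, another growth factor target, was lowest in replicate 2 of Kmt2a+/LSL (403, against 845 and 759) and of Kmt2a+/+ (268, against 684 and 801). The astrocyte marker Gfap was highest in replicate 2 of these 3 genotypes (in Nes-Cre+/- Kmt2a+/LSL it was lowest there), with 1128, 7503 and 6433 reads in Nes-Cre+/- Kmt2a+/+, 3334, 4567 and 2350 in Kmt2a+/LSL and 1623, 7869 and 1520 in Kmt2a+/+. S100b and Gja1 were also highest in replicate 2 of these genotypes. Aqp4 and Aldh1l1 were so in Kmt2a+/+ alone, since Aqp4 was highest in replicate 1 of Kmt2a+/LSL (1060) and replicate 3 of Nes-Cre+/- Kmt2a+/+ (2036), and Aldh1l1 in replicate 3 of both (20347 and 20246). Fgfr3 was highest in replicate 2 of both Kmt2a+/LSL and Kmt2a+/+ and lowest in replicate 1 of Nes-Cre+/- Kmt2a+/+. The 5 astrocyte markers together summed to 19396, 36236 and 34694 in Nes-Cre+/- Kmt2a+/+ and to 18468 to 28529 in Nes-Cre+/- Kmt2a+/LSL. They summed to 27727 to 34364 in Kmt2a+/LSL and to 12916 to 44273 in Kmt2a+/+. In Nes-Cre+/- Kmt2a+/LSL, Spry1, Spry4, Dusp6 and Etv5 were closest between libraries (highest over lowest 1.05, 1.25, 1.3 and 1.15) but Spry2 (1.39) and Etv4 (1.53) were not. The astrocyte sum had its narrowest range in Kmt2a+/LSL, where Spry1, Spry4, Dusp6 and Etv5 were at 1.3, 1.47, 1.62 and 1.43. Cell composition and signalling state cannot be told apart in these bulk values, and the part of either was not tested.

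The upstream sequences of 3 of the genes that varied together, and of Egfr, are shown because they allow a look for the letters that ETS factors such as ETV4 and ETV5 are known to favour. In the RefSeq promoter table used here, 7 of the 10 genes were matched. Each line holds the 250 bases before the start annotated by RefSeq, 5′ to 3′ on the gene's strand (GRCm38.p6), and capitals mark CGGAAG or its reverse complement CTTCCG. The windows are chr3:37639697-37639946 (plus strand) for Spry1, chr10:99262981-99263230 (plus) for Dusp6, chr16:22439571-22439820 (minus) for Etv5 and chr11:16751953-16752202 (plus) for Egfr. The GENCODE start of Etv5 (22439719) lies inside its window, so that part of the window is within the gene as GENCODE gives it.
Spry1: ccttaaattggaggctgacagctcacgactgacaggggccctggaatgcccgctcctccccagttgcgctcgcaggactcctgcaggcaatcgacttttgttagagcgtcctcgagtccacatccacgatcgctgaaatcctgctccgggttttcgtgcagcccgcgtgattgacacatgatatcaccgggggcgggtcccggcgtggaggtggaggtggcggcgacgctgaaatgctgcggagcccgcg
Dusp6: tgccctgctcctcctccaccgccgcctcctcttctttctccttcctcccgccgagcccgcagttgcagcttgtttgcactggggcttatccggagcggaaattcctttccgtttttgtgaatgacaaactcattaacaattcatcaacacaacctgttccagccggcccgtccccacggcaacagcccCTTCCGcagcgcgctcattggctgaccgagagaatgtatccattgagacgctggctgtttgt
Etv5: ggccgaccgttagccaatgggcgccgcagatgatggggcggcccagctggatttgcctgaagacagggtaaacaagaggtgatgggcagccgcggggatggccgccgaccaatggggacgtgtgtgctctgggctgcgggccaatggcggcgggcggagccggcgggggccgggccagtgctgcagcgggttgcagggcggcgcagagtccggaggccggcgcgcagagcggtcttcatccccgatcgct
Egfr: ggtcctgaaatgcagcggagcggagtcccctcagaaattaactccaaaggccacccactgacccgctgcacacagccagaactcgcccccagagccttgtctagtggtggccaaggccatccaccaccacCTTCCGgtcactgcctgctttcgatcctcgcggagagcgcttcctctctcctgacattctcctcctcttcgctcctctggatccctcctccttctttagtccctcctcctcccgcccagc

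The letters occur once in the Dusp6 window, beginning 62 bases before the start, and once in the Egfr window, beginning 120 bases before it. Spry1, Spry2, Etv5, Fgfr2 and Fgfr3 held none in their windows. Of the 32851 RefSeq mouse promoters, 4466 (13.6%) held these letters in a window of the same length. A match of 6 letters is a description of the sequence and not of binding, and its absence covers these windows alone. The Etv5 and Spry1 windows are rich in G and C (71.2% and 62.4%).

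The rest of the pathway was followed with 6 lists of 78 genes, of which 72 had a row in the table and 70 were tested. In each of the 4 comparisons 0 of the 70 had an adjusted p under 0.05. For Kmt2a+/LSL against Kmt2a+/+, 37 of 70 were higher and 33 lower, with a median log2 difference of 0.01, beside 0.00 for all genes tested. By list, 5 of 11 EGF family ligands, 3 of 10 FGF ligands, 4 of 7 other receptors and coreceptors, 6 of 13 adaptors and RAS regulators, 8 of 12 genes of the kinase relay and 11 of 17 other feedback and ERK-induced genes were higher. The 10 genes themselves were 5 higher and 5 lower with a median of 0.00 in that comparison. For Nes-Cre+/- Kmt2a+/LSL against Kmt2a+/LSL the lists had 27 higher and 43 lower with a median of -0.04, and the 10 genes 5 and 5 with 0.04. Between Nes-Cre+/- Kmt2a+/+ and Kmt2a+/+ the lists had 36 higher and 34 lower with a median of 0.02, and the 10 genes 5 and 5 with -0.04. Between the 2 genotypes with nestin-Cre the lists had 38 higher and 32 lower with a median of 0.02. There the 10 genes had 6 higher and 4 lower with a median of 0.15, with 5 of the 6 feedback genes higher and 3 of the 4 receptors lower. Of all genes tested, 50.1%, 50.4%, 52% and 50.9% were higher in the 4 comparisons in this order. Among those with a mean normalized count of at least 50 the shares were 50.9%, 46.6%, 50.7% and 49.7%.

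Among the ligands, Tgfa and Fgf1 were the highest per length, at medians of 23.1 and 29.7. Fgf1, which codes for a ligand of all FGF receptors, was the 1 ligand of its list with a mean normalized count of at least 50. Relative to Kmt2a+/+ it was at -0.27 (SE 0.20) in Kmt2a+/LSL, and at -0.38 (SE 0.20) with Nes-Cre+/- Kmt2a+/+. Its level in Nes-Cre+/- Kmt2a+/LSL was higher by 0.30 (SE 0.20) than in Kmt2a+/LSL and by 0.41 (SE 0.20, edgeR unadjusted p = 0.0607) than in Nes-Cre+/- Kmt2a+/+. The interaction term, the LSL difference under nestin-Cre minus that without Cre, was 0.68 for Fgf1 (SE 0.28, edgeR unadjusted p = 0.0328, adjusted p = 1). Its 12 counts lay between 778 and 1420, and the libraries of Nes-Cre+/- Kmt2a+/LSL (1420, 1230 and 971) overlapped those of every other genotype. Of the 3 EGF family ligands at that level, Hbegf, which codes for a ligand of EGFR, had the lowest value in 3 comparisons, down to -0.30 (SE 0.32) in Nes-Cre+/- Kmt2a+/LSL against Kmt2a+/LSL. Nrg2 was at 0.34 (SE 0.40) in Nes-Cre+/- Kmt2a+/+ against Kmt2a+/+ and at -0.42 (SE 0.40) in Nes-Cre+/- Kmt2a+/LSL against Nes-Cre+/- Kmt2a+/+.

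Among the 3 other receptors at that level, Fgfrl1, an FGF receptor without a kinase domain, was the highest per length (median 239), and its largest difference was 0.30 (SE 0.33) in Nes-Cre+/- Kmt2a+/+ against Kmt2a+/+. Erbb4, a receptor for neuregulins, ranged from -0.26 to 0.14 over the comparisons (SE 0.44). Among adaptors Gab1 was highest (median 115), and Cbl, a ubiquitin ligase of activated receptors, was at 0.78 (SE 0.46) in Nes-Cre+/- Kmt2a+/LSL against Nes-Cre+/- Kmt2a+/+. In the kinase relay Nras was highest (median 161), and the 12 members lay between -0.37 and 0.33 in every comparison. Of further feedback genes Lrig1, an inhibitor of EGFR, was the highest (median 384, above that of Egfr itself), with 3692 reads in Kmt2a+/+ replicate 1 and 13923 to 19939 in the other 11. Among those with a mean normalized count of at least 50, Ier3 had the largest value, 0.68 (SE 0.42) in Kmt2a+/LSL against Kmt2a+/+, and Egr1 the lowest, -0.97 (SE 0.64) in Nes-Cre+/- Kmt2a+/LSL against Kmt2a+/LSL. The Egr1 value rested on Kmt2a+/LSL replicate 3 (15594 reads), since the other 2 libraries (3242 and 3193) lay inside the range of Nes-Cre+/- Kmt2a+/LSL (5015, 3795 and 2465). No p of these was under 0.05 even without adjustment, and all adjusted values by edgeR were 1.

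In the 4 comparisons 3 list genes had an unadjusted p under 0.05, and all were near the limit of detection, so they are named after their values were seen. They were 2 of 70 in Kmt2a+/LSL against Kmt2a+/+ (Erbb3 and Nrg1), where 1.79% of all genes passed, and 2 of 70 in Nes-Cre+/- Kmt2a+/+ against Kmt2a+/+ (Fosl1 and Nrg1), where 1.4% did. In the 2 comparisons with Nes-Cre+/- Kmt2a+/LSL the count was 0, against 1.61% and 1.11% of all genes. Erbb3, a neuregulin receptor, had 18, 23.4 and 16.5 reads in Kmt2a+/LSL against 2.85, 6.67 and 8.22 in Kmt2a+/+ (log2 difference 1.64, SE 0.48, edgeR adjusted p = 1). Nrg1 was at 0 in all Kmt2a+/+ libraries and at most 25.3 in any other. Fosl1 was at most 12.8 in any library.

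The genes whose pattern over the 12 libraries was nearest to that of Egfr, by the root mean square difference of centred log2 values among 11669 genes, were Foxo1 (0.049), Maml2 (0.071) and Pan3 (0.076). Each of these was highest in Kmt2a+/+ replicate 1, by 0.45, 0.40 and 0.55 above its own mean, as Egfr was by 0.47. Nearest to the mean of the 6 feedback genes were Cdc25b (0.090), Lynx1 (0.093) and B9d1 (0.103). Each was lowest in Kmt2a+/+ replicate 1 and high in Kmt2a+/+ replicate 3 and Nes-Cre+/- Kmt2a+/+ replicate 1. The low point of the mean in Kmt2a+/+ replicate 1 rested on Etv4, as given above, so this likeness is to the mean of all 6 before any GC offset and not to each feedback gene. Among the feedback genes Etv5 lay nearest to their mean (0.115) and Etv4 farthest (0.536).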

How the data were processed

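RNA had been prepared from cultured mNPCs and sequenced after poly(A) selection. According to the study's methods, the authors pseudoaligned reads with kallisto 0.48.0 to the mouse transcriptome (mm10) and summed transcripts to genes with tximport, and tested with DESeq2 1.42.0. The deposited table holds estimated counts per gene as whole numbers, which were used as they are (the planned design had assumed raw counts). Of 18911 genes, 193 have no symbol. A gene was kept when its counts summed to more than 10 and came from at least 2 libraries, and the 17076 genes kept were tested in R 4.3.3 with edgeR 4.0.16 (TMM, quasi-likelihood test, genotype as the only term, Benjamini-Hochberg adjustment), and limma 3.58.1 served as an alternative. Normalized counts are counts divided by TMM-scaled library sizes relative to their mean. Log2 values use a prior count of 2, and the GC offset is a loess curve (span 0.5) per library. Single genes were also compared with exact permutation tests in scipy. The fits were tested on simulated data with less spread, larger differences than the 10 genes show and no library that stood apart. That run does not tell what the fits can detect here.

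Gene positions and transcripts are GENCODE (GRCm38). Named genes were the 10 genes, Kmt2a, and in each pathway list the gene highest per length and, among those with a mean normalized count of at least 50, those with the largest positive and negative log2 fold change per comparison, together with the 3 genes most like Egfr and most like the feedback mean. Low-count genes with an unadjusted p under 0.05, and Ccnd1, Myc, Hes5 and the glial, neuronal and progenitor markers given singly, were named after their values were seen. The genes and lists were chosen with earlier results of these data known. Totals of 18280008 to 28596919 reads set the counting precision, and error bars and intervals cover the spread between libraries. Alternatives were another normalization, DESeq2, limma-voom, a robust fit, no filter or a stricter one, a replicate block, fewer genotypes, leaving out each library, and a GC offset, the last added after seeing the data, as were the fits by DESeq2 and with a block on 11 libraries. The authors' fdrtool step was not run.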

Additional observations from a re-analysis of the deposited data

How the results depend on the processing

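The count of called genes was 0 in every comparison and stayed so with DESeq2 size factors, a robust fit, no filter and the replicate block. Fits with fewer genotypes were run for the first 4 comparisons listed next (6 libraries) and for the first 2 of them (9 libraries), and called 0. In the order of the 7 comparisons (Kmt2a+/LSL against Kmt2a+/+, Nes-Cre+/- Kmt2a+/LSL against Kmt2a+/LSL, Nes-Cre+/- Kmt2a+/+ against Kmt2a+/+, Nes-Cre+/- Kmt2a+/LSL against Nes-Cre+/- Kmt2a+/+, the difference of the LSL effects, any difference, and nestin-Cre) DESeq2's Wald test called 7, 7, 3, 3, 10, 5 and 7 genes, and 21, 7, 5, 5, 7, 37 and 12 on 11 libraries without Kmt2a+/+ replicate 1. Limma-voom called 2 in the first, second, sixth and seventh, the GC offset 1 in the first, second and sixth, and at least 10 counts in every library 1 in the seventh. With 1 library left out the counts ran from 0 to 2, 0 to 1, 0 to 3 and 0 to 2 in the first, second, sixth and seventh, the highest of each without Kmt2a+/+ replicate 1. None of the called genes was among the 10, whose adjusted p was at least 0.247 in all settings.

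Some differences changed sign, among them Dusp6 (-0.37 for Kmt2a+/LSL and -0.39 for Nes-Cre+/- Kmt2a+/+, each relative to Kmt2a+/+), and the cause was not tested. For Kmt2a+/LSL against Kmt2a+/+, Fgfr1 was -0.01 with DESeq2 or its size factors. Limma-voom gave Fgfr1 -0.23, Fgfr3 -0.47, Spry1 0.15, Spry2 -0.06 and Dusp6 0.31 there. DESeq2 on 11 libraries gave Fgfr1 -0.32, Fgfr3 -0.51 and Spry2 -0.14. For Nes-Cre+/- Kmt2a+/LSL against Kmt2a+/LSL, Spry2 was 0.01 with DESeq2, its size factors or the stricter filter, 0.06 with limma-voom and 0.00 with DESeq2 on 11 libraries or the GC offset. For Nes-Cre+/- Kmt2a+/+ against Kmt2a+/+, Spry4 was -0.01 with DESeq2, its size factors or 6 libraries. Limma-voom gave Egfr 0.00, Fgfr1 -0.18, Fgfr3 -0.14, Spry4 -0.13, Dusp6 0.14 and Etv4 -0.12, and DESeq2 on 11 libraries Egfr 0.01, Fgfr1 -0.28, Fgfr3 -0.28, Spry4 -0.21 and Etv4 -0.23. The GC offset gave Fgfr1 -0.13 in the first comparison, and Fgfr1 -0.11 and Spry4 -0.04 in Nes-Cre+/- Kmt2a+/+ against Kmt2a+/+.

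Replicate numbers are shared by the genotypes, but not every pair of same-numbered libraries deviated together, so the numbers were not taken to pair the libraries (mean correlation 0.0844, range -0.0717 to 0.416 over 18 pairs, against -0.0407 over 36 pairs of other numbers), and 6 of 12 libraries were closest to their own number. The replicate block called 0 genes in all 7 comparisons and turned the sign of 1 of 40 values, Etv4 at 0.15 in Kmt2a+/LSL against Kmt2a+/+. With the block on 11 libraries Fgfr1, Fgfr3 and Spry2 were -0.30, -0.32 and -0.07 in that comparison, and Fgfr1, Fgfr3, Spry4, Etv4 and Etv5 were -0.26, -0.11, -0.36, -0.15 and -0.01 in Nes-Cre+/- Kmt2a+/+ against Kmt2a+/+. With the block and the GC offset Fgfr1 was -0.13 and -0.12 in these 2 and Spry4 -0.05 in the second.

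With 1 library left out, values whose sign turned had these ranges. In Kmt2a+/LSL against Kmt2a+/+ they were -0.31 to 0.00 for Egfr, -0.32 to 0.32 for Fgfr1, -0.50 to 0.81 for Fgfr3, -0.31 to 0.43 for Spry1, -0.13 to 0.29 for Spry2 and -0.48 to 0.32 for Etv4. In Nes-Cre+/- Kmt2a+/LSL against Kmt2a+/LSL they were 0.00 to 0.17 for Spry1, -0.10 to 0.13 for Spry2, -0.21 to 0.05 for Spry4, 0.00 to 0.35 for Dusp6, -0.03 to 0.25 for Etv4 and -0.01 to 0.23 for Etv5. In Nes-Cre+/- Kmt2a+/+ against Kmt2a+/+ they were -0.30 to 0.01 for Egfr, -0.28 to 0.36 for Fgfr1, -0.21 to 0.02 for Fgfr2, -0.27 to 1.05 for Fgfr3, -0.50 to 0.38 for Spry1, -0.30 to 0.13 for Spry2, -0.48 to 0.61 for Spry4 and -0.23 to 0.57 for Etv4. In Nes-Cre+/- Kmt2a+/LSL against Nes-Cre+/- Kmt2a+/+ they were -0.03 to 0.53 for Spry1 and -0.01 to 0.50 for Dusp6. A group left with 2 libraries borrows its spread from the others.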
